A study of Mus musculus with 5 samples.

Results

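The interleukin-1 (IL-1) family and its inflammasome machinery were examined in bulk RNA sequencing of tumor-bearing mouse brain after ultrasound-mediated blood-brain barrier opening (UMBO). The group comprised 10 genes of the 55573 in the count files, taken by symbol from a fixed list: Il1a, Il1b, Il18, Il1rn, Il1r1, Nlrp3, Pycard, Casp1, Casp4 and Gsdmd. All 10 matched 1 Ensembl identifier each, and all 10 were among the 23592 genes with enough counts to be tested. Every mouse was a C57BL/6 female whose right caudate nucleus-putamen had received GL261 cells, a mouse glioma line, at an age of 7 to 8 weeks, the cells having been transduced with a luciferase/mKate2 vector. The 3 vehicle mice were given an antibody dilution buffer, and the 2 UMBO mice were sonicated after intravenous microbubbles. Both groups had sessions on days 21 and 24, and the right hemisphere was taken 24 h after the last one. Each library is therefore whole-hemisphere RNA from tumor, brain and blood-borne cells together, from 1 mouse. Tumors were matched for bioluminescence before treatment, but no tumor size is given for single libraries.

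IL-1α and IL-1β signal through the receptor IL-1R1, and the receptor antagonist encoded by Il1rn occupies the same receptor without signaling. IL-1β and IL-18 are made as inactive precursors. An inflammasome, in which a sensor such as NLRP3 gathers the adaptor ASC (Pycard), activates caspase-1, which cleaves both precursors and the pore-forming protein gasdermin D, and caspase-11 (Casp4 in the mouse) cleaves gasdermin D in response to intracellular lipopolysaccharide. In the brain, microglia and infiltrating myeloid cells are the main source of IL-1β, and endothelial cells carry IL-1R1. Read counts measure the mRNA of these genes and say nothing about cleavage or release of the proteins.

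The libraries held between 59736771 and 86164159 counted reads, and no 2 of them were as close as sampling noise. UMBO replicate 2 stood apart, at 134 on the first principal component of log2 read levels against -68.4 to 17.0 in the other libraries, so the fold change of each of the 10 genes is also given without it. Neuronal markers, as a check of the labelled brain tissue, summed to between 2530 (UMBO replicate 2) and 7570 (vehicle replicate 1) CPM (reads per 1000000, after TMM scaling between libraries) and were detected in every library.

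The 10 genes had higher mean levels with UMBO than with vehicle in all 10 cases, and their fold changes had a median of 1.43 on the log2 scale. Much of that size depended on 1 library. Without UMBO replicate 2 the median was 0.22, with 9 of 10 genes higher, where the median over all genes tested was 0.01 with all libraries and -0.01 without that library. None of the 10 passed an adjusted p under 0.05 in the quasi-likelihood test of edgeR, where 0% of all genes passed. Pycard alone had an unadjusted p under 0.05, 1 of 10 against 5.3% of all genes tested that did so toward higher values and 2.06% toward lower values. Il1r1 alone did not overlap between the groups, its lowest UMBO library exceeding its highest vehicle one, again 1 of 10, against 11.5% of all genes. Both shares come from a single gene and neither sets the 10 genes apart. In the Wald test of DESeq2, 40 genes of the whole table and none of the 10 passed an adjusted p under 0.05.

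All 10 genes had the same highest library, while the order of the others varied. UMBO replicate 2 was the highest of the 5 libraries in 10 of 10, against 40.4% of all genes tested, and vehicle replicate 2 was the highest of the vehicle libraries in 8 of 10, against 39.3%. UMBO replicate 1 lay above vehicle replicates 1 and 3 in 9 of 10 genes, against 37.4% of all genes, and below vehicle replicate 2 in 8 of 10, against 50.1%. In whole-tissue RNA, more cells of a type and more RNA per cell cannot be told apart.

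Among the ligands, Il1b varied most. Il1b, on chromosome 2 (129364570 to 129371139, reverse strand, GRCm38), was measured at 0.548, 2.27 and 0.579 CPM in vehicle replicates 1, 2 and 3, and at 1.18 and 6.75 CPM in UMBO replicates 1 and 2. UMBO replicate 1 lay between the vehicle libraries, so the groups overlapped. Vehicle mice averaged 1.13 ± 0.985 CPM (SD, n = 3) and UMBO mice 3.97 ± 3.94 CPM (SD, n = 2). Its log2 fold change of 1.81 (standard error 0.92) had an edgeR adjusted p of 0.497, and it was 0.07 without UMBO replicate 2. With between 41 and 442 reads per library, counting error was small beside this spread.

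Il1a, whose product is active without cleavage and is released by damaged cells, lies 54598 bases from Il1b on the same chromosome (129299610 to 129309972). It reached 1.30, 2.55 and 1.48 CPM among vehicle mice and 2.35 and 3.83 CPM after UMBO. Again UMBO replicate 1 lay just under vehicle replicate 2. The log2 fold change was 0.80 (standard error 0.423, edgeR adjusted p 0.497), and 0.41 without UMBO replicate 2. Il18 (chromosome 9, 50554827 to 50581840), the ligand that acts on T cells and natural killer cells, was nearly level, at 16.7, 21.2 and 18.6 CPM with vehicle and 20.4 and 22.1 CPM with UMBO. Its highest library exceeded its lowest by 1.33-fold, compared with 12.3-fold for Il1b, and its log2 fold change was 0.17 (standard error 0.185, edgeR adjusted p 0.619), or 0.12 without UMBO replicate 2. Il1a shares 222 exonic bases with Gm14023 and Il1b 25 with Il1bos, both antisense. The strand setting of the counting was not given in the sources used here, but these partners had only 23 to 38 and 5 to 17 reads per library.

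The antagonist showed the widest range of all. Il1rn (chromosome 2, 24336853 to 24351494) was at 0.334, 5.01 and 0.921 CPM among vehicle mice and at 2.26 and 17.0 CPM after UMBO, a 50.8-fold range over the 5 mice. Within the vehicle group alone, replicate 2 exceeded the mean of the other 2 libraries 7.99-fold. The log2 fold change of 2.20 was the largest of the 10 in the comparison of all 5 libraries, but its standard error was 1.24 and its edgeR adjusted p 0.497. It was 0.11 without UMBO replicate 2 and 3.97 without vehicle replicate 2.

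The receptor behaved differently. Il1r1 (chromosome 1, 40225080 to 40317257) was at 5.80, 5.28 and 6.12 CPM among vehicle mice and at 7.59 and 7.66 CPM after UMBO. The groups did not overlap, and the UMBO libraries lay closer to each other than the vehicle libraries did. Means were 5.73 ± 0.423 CPM (SD, n = 3) and 7.63 ± 0.051 CPM (SD, n = 2), a 1.33-fold difference. The log2 fold change of 0.41 (standard error 0.221) ran from 0.38 to 0.46 when single libraries were omitted. It did not pass the edgeR quasi-likelihood test (adjusted p 0.497) or the DESeq2 Wald test (adjusted p 0.511).

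**Figure D1:**
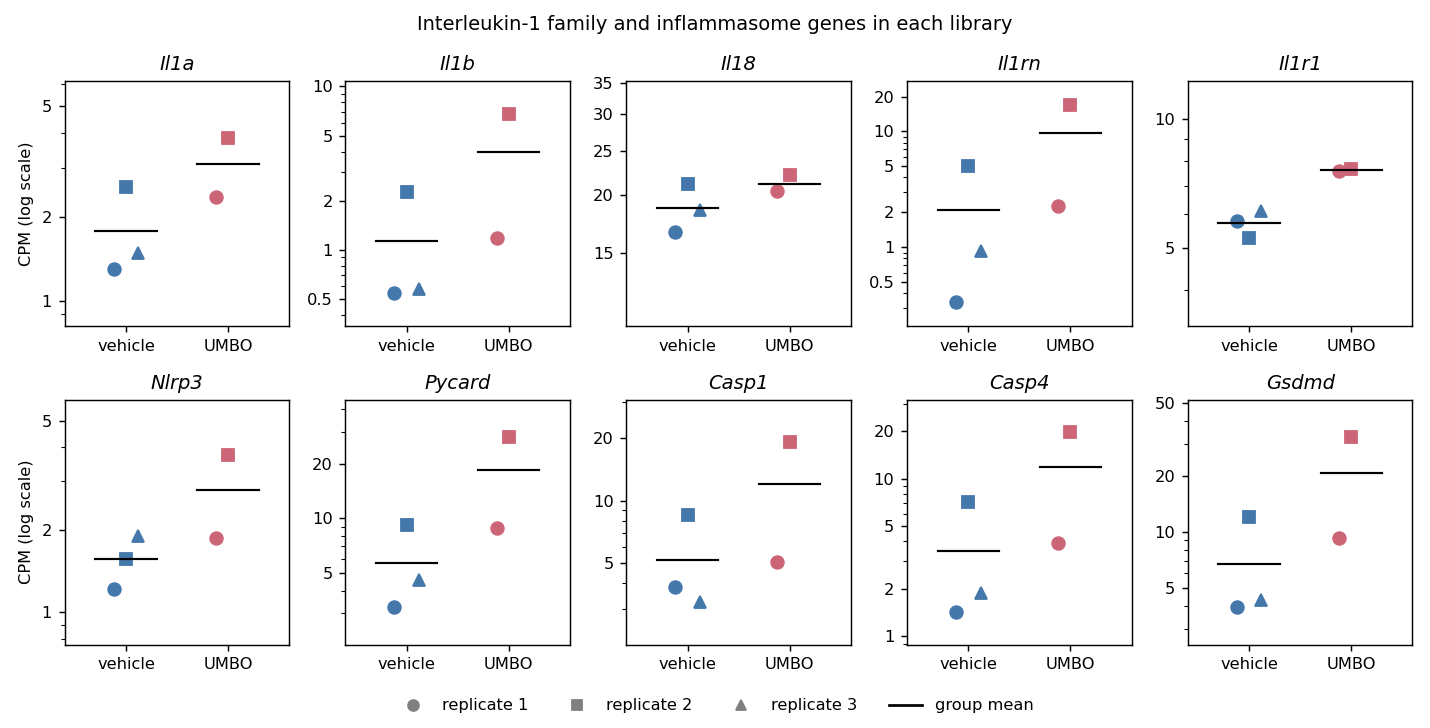
Level of each of the 10 genes in each library, in CPM on a log axis that differs between panels, with circles, squares and triangles for replicates 1, 2 and 3 and lines for group means. UMBO replicate 2 (square) is the highest point in every panel, and in Il1r1 alone the UMBO points, at 7.59 and 7.66, clear all vehicle points.

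Of the inflammasome genes, the sensor varied least between libraries. Nlrp3 (chromosome 11, 59541568 to 59566956) was at 1.22, 1.57 and 1.89 CPM with vehicle and 1.86 and 3.73 CPM with UMBO, so UMBO replicate 1 was within the vehicle range. Its log2 fold change was 0.84 (standard error 0.408, edgeR adjusted p 0.497), and 0.25 without UMBO replicate 2. Pycard (chromosome 7, 127989708 to 127993867), the adaptor that links sensor to caspase-1, stood at 3.24, 9.14 and 4.61 CPM with vehicle and at 8.83 and 28.1 CPM with UMBO. Pycard gave the smallest unadjusted p of the 10, at 0.0319, with a log2 fold change of 1.71 (standard error 0.613) and an edgeR adjusted p of 0.497. Without UMBO replicate 2 this was 0.64, the largest value among the 10 genes in that comparison. Pycard shares 485 exonic bases with Gm45205 on the opposite strand, which had 6 to 38 reads per library against 242 to 1842 for Pycard.

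The caspases are neighbors on chromosome 9, Casp1 at 5298517 to 5307265 and Casp4 at 5308828 to 5336783. Casp1 was at 3.84, 8.5 and 3.25 CPM among vehicle mice and at 5.08 and 19.2 CPM after UMBO. Its log2 fold change of 1.22 (standard error 0.656) became -0.03 without UMBO replicate 2, the only sign change among the 10 genes. Casp4 was at 1.42, 7.12 and 1.88 CPM with vehicle and at 3.94 and 19.9 CPM with UMBO, a log2 fold change of 1.78 (standard error 0.909) that was 0.18 without the same library. In both genes UMBO replicate 1 was below vehicle replicate 2, and the adjusted p from edgeR was 0.497.

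Gsdmd (chromosome 15, 75862327 to 75867408), which encodes the pore-forming end point of the pathway, was at 3.94, 12 and 4.26 CPM among vehicle mice and at 9.32 and 32.5 CPM after UMBO. UMBO replicate 1 lay above vehicle replicates 1 and 3 but below replicate 2. The log2 fold change was 1.63 (standard error 0.688, edgeR adjusted p 0.497). It was 0.47 without UMBO replicate 2 and 2.39 without vehicle replicate 2.

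**Figure D2:**
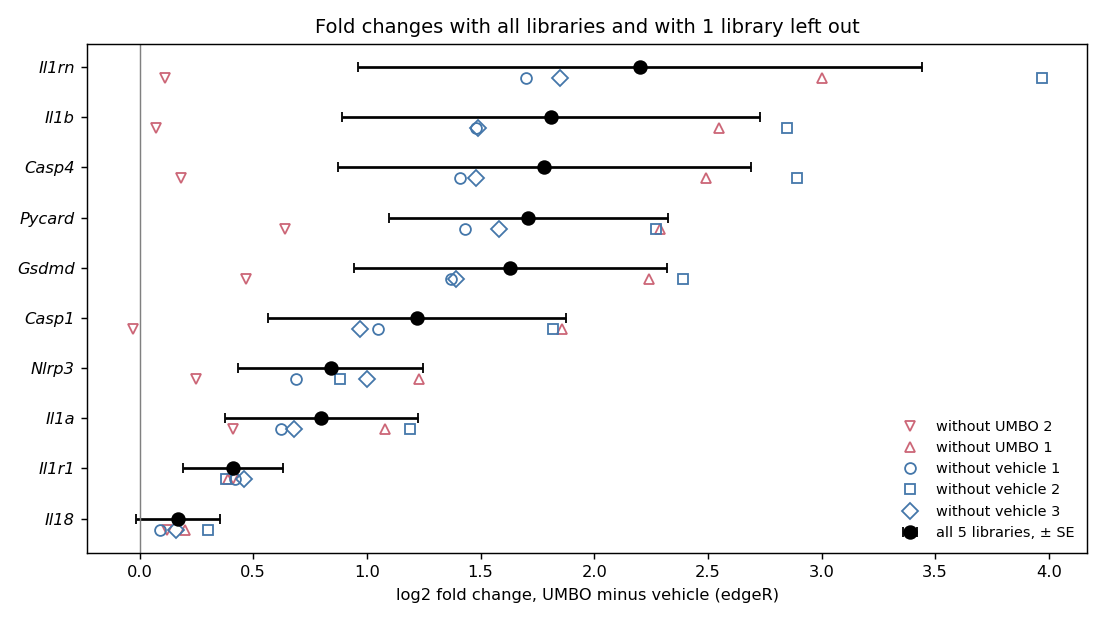
Log2 fold change of each gene between UMBO and vehicle from edgeR, with all 5 libraries (filled, bars are standard errors) and with 1 library left out in turn (open symbols). Without UMBO replicate 2 the values lie between -0.03 and 0.64, while Il1r1 stays between 0.38 and 0.46 with each omission.

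The 10 genes fell into unlike profiles. As a description, the distance between 2 genes was taken as the Euclidean distance of their log2 CPM over the 5 libraries, each gene centred on its own mean. The closest pair was Il1b and Casp4, at 0.30, followed by Pycard and Gsdmd at 0.39 and by Il1r1 and Il18 at 0.45. Il1rn and Il1r1 were the farthest apart, at 4.10. Il1b, Il1rn, Pycard, Casp1, Casp4 and Gsdmd thus had large excursions in UMBO replicate 2 and vehicle replicate 2, while Il18 and Il1r1 were nearly flat and Il1a and Nlrp3 lay between them. Among 16235 other genes with a mean log2 CPM over 0, the nearest to Casp4 was Ifitm3 (distance 0.106), an interferon-induced membrane protein, and the nearest to Pycard was Mx1 (0.112), an interferon-induced GTPase. Gsdmd lay nearest to Lgals9 (0.155), the gene of galectin-9. The nearest genes to the others were Parvg for Il1a (0.112), Gm47621 for Il1b (0.177), BC029722 for Il18 (0.0393), Cyp4f18 for Il1rn (0.385), Spin4 for Il1r1 (0.116), Mns1 for Nlrp3 (0.164) and Gm10243 for Casp1 (0.101). With 5 libraries such distances describe these mice and carry no test.

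The promoters of the closest pair, Il1b and Casp4, are shown beside those of the farthest pair, Il1rn and Il1r1. Each is the 250 bases before the RefSeq start nearest the gene start (GRCm38.p6, 5′ to 3′ on the strand of the gene), with capitals for letters that match a searched motif. The motifs were the NF-kappa-B consensus, AP-1 (TGANTCA), a PU.1 core (GAGGAA) and a TATA box (TATAAA), read on both strands.
Il1b, chr2:129371140-129371389 (- strand): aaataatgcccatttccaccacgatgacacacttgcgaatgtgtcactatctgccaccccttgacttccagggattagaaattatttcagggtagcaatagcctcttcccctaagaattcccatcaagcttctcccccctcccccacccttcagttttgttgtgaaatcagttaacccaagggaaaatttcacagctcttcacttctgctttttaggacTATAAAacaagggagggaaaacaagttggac
Casp4, chr9:5308599-5308848 (+ strand): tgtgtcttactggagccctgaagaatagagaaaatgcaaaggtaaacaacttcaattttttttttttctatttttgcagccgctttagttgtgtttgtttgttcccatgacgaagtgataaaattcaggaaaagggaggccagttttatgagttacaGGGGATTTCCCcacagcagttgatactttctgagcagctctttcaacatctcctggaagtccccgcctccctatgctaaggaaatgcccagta
Il1rn, chr2:24336610-24336859 (+ strand): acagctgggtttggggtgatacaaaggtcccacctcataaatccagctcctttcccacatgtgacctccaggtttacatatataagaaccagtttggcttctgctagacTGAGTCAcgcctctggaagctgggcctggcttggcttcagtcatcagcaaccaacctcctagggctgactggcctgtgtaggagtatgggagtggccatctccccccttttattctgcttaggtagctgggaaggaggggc
Il1r1, chr1:40224830-40225079 (+ strand): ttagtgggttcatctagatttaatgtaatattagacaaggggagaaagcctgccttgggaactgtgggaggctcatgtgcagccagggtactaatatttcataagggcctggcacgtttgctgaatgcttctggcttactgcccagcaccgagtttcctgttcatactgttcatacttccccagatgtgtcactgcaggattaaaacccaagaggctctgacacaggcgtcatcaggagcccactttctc

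Il1b has a TATA box that begins 31 bases before its start, and Casp4 holds overlapping NF-kappa-B matches, which begin 93 and 92 bases before its start and differ by 1 base in position. Il1rn has an AP-1 match that begins 141 bases before the most upstream of its 3 listed starts, and no searched motif occurs in the window of Il1r1. Of the 10 genes, 9 had a promoter in the RefSeq table, without Gsdmd. NF-kappa-B matches occurred in 2 of the 9 (Casp4 and Nlrp3) and in 3.90% of 32851 promoters. AP-1 occurred in 2 of 9 (Il1a and Il1rn) against 6.75%, the PU.1 core in 3 of 9 against 23.3%, and the TATA box in 3 of 9 against 12.4%. The TATA box match of Il18 begins 175 bases before its start, where those of Il1a and Il1b begin 32 and 31 bases before theirs. The RefSeq start of Il18 lies 127 bases from the gene start, and the bases that follow it matched no annotated transcript of the gene. Letters that match are a description of the sequence and not of binding, and the counts cannot be split between the starts of a gene.

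Marker genes of several cell types differed between the same libraries. Summed CPM of the 7 monocyte and macrophage markers (Ccr2, Ly6c2, Plac8, Chil3, Lyz2, Ms4a4c and Arg1) was 16.9, 112 and 35.4 among vehicle mice and 79.0 and 432 after UMBO. This order of the 5 libraries was also that of 7 of the 10 genes, Il1a, Il1b, Il18, Il1rn, Pycard, Casp4 and Gsdmd. It was also the order along the first principal component of all genes tested, which held 78.7% of the variance. The share of all genes with this order was not counted, so the 7 do not tie the group to these markers. Lyz2, a lysozyme, gave most of the sum in UMBO replicate 2 (294 CPM). Of the 7 markers, 1 did not overlap between the groups. Their median log2 fold change was 2.74, and -0.13 without UMBO replicate 2. Summed proliferation markers had nearly the same order, at 38.7, 92.6 and 26.2 CPM with vehicle and 94.6 and 429 CPM with UMBO.

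The 10 microglia markers had another pattern, with sums between 362 and 518 CPM among vehicle mice and of 699 and 837 CPM after UMBO, and 8 of the 10 did not overlap between the groups. Neutrophil markers summed to 9.60 to 16.8 CPM with vehicle and 22.3 to 30.5 CPM with UMBO. Most of that sum came from Csf3r, at 9.04 to 24.1 CPM, which microglia also express. The defining neutrophil gene Ly6g had between 0 and 3 reads per library. T cell markers were at 16.7 to 26.9 CPM with vehicle and at 9.75 and 33.7 CPM with UMBO. Cd4 was the largest part of that sum in every library, at 14.6, 14 and 7.31 CPM with vehicle. With UMBO it was at 4.56 and 8.31 CPM, a log2 fold change of -0.9. The other T cell markers went the other way, with log2 fold changes from 0.67 (Trac) to 1.42 (Cd3d). Endothelial markers summed to 173 to 249 CPM with vehicle and to 285 and 347 CPM with UMBO, without overlap, as for Il1r1. Singly, 3 of the 8 did not overlap. Slco1c1 had a lower mean with UMBO (log2 fold change -0.26), and Flt1 (0.12) and Tek (0.13) were near 0. Ly6c1 was the largest part of the sum in UMBO replicate 2, at 83.5 CPM. Astrocyte markers summed to 1700 to 2400 CPM with vehicle and 2950 to 3440 CPM with UMBO, a gap carried by Gfap, the filament gene of reactive astrocytes, at 214, 515 and 388 CPM with vehicle and 1400 and 1640 CPM with UMBO. Aldoc (0), Slc1a3 (-0.29) and Gja1 (-0.09) had log2 fold changes near or below 0, and 2 of the 6 astrocyte markers did not overlap. Neuron markers went the other way from the 10 genes, at 7570, 4920 and 4860 CPM with vehicle and 5070 and 2530 CPM with UMBO. In 4 of the 7 both UMBO libraries were below all vehicle ones. Of all 23592 genes tested, 2690 had both UMBO libraries below every vehicle library, and 2704 had both above. Oligodendrocyte markers lay between 4850 and 5710 CPM in every library. The part of any of these cell types in the fold changes of the 10 genes was not tested.

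**Figure D3:**
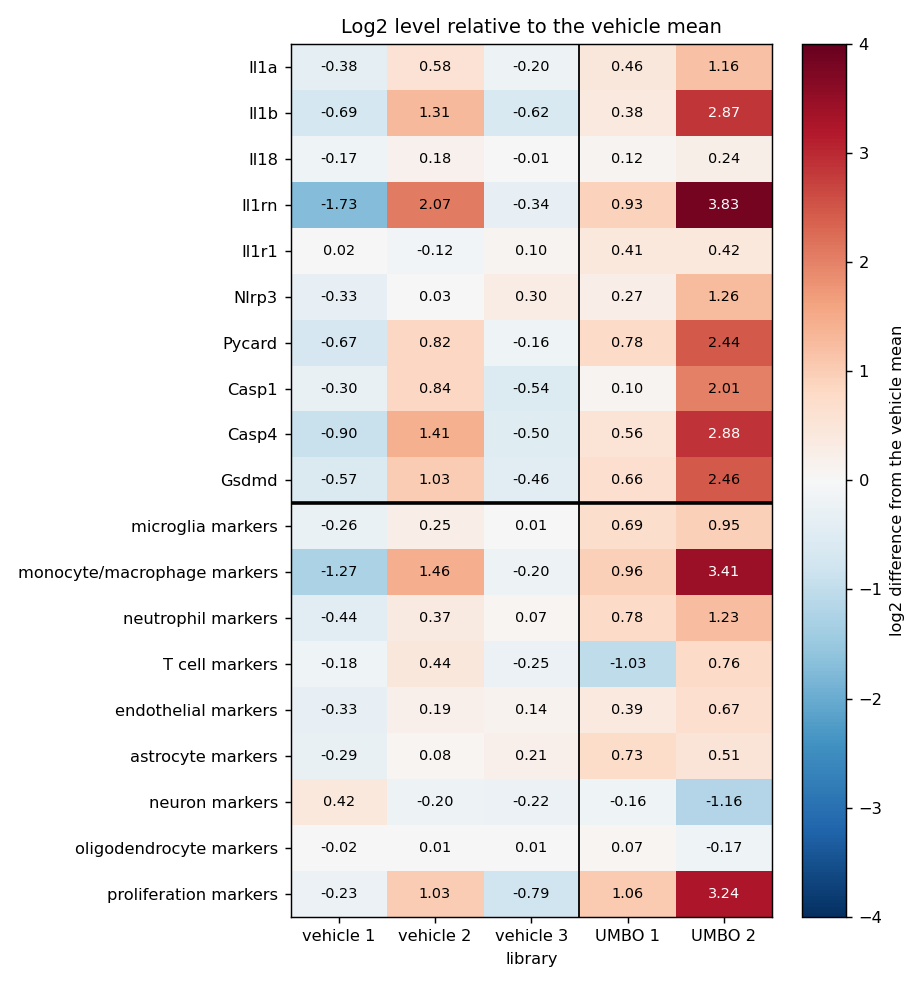
Log2 level relative to the vehicle mean for the 10 genes (above the line) and for the summed markers of 9 cell types or states (below it), by library. Monocyte/macrophage markers read 1.46 in vehicle replicate 2, 0.96 in UMBO replicate 1 and 3.41 in UMBO replicate 2, where Il1rn reads 2.07, 0.93 and 3.83.

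Ratios of reads within a library do not depend on scaling, and 3 were compared between the groups. The labels can be assigned in 10 ways, which sets 0.1 as the lowest p that a 2-sided exact permutation test can give. The number of Il1b reads per Il1rn read, ligand against antagonist, was 1.64, 0.453 and 0.628 among vehicle mice and 0.523 and 0.397 after UMBO. The antagonist thus had more reads than the ligand in 4 of 5 libraries. Its gene has more exonic bases, 5535 against 1907, counted over all annotated transcripts. Per kilobase of these bases Il1b lay above Il1rn in 5 of 5 libraries. That order depends on the divisor, because the counts do not tell the transcripts of a gene apart. On the log2 scale vehicle mice averaged -0.37 ± 0.957 (SD, n = 3) and UMBO mice -1.13 ± 0.282 (SD, n = 2), and the difference of -0.76 was within the vehicle SD (exact permutation p = 0.4, adjusted over the 3 ratios 0.6). It was -0.227 without vehicle replicate 1 and -1.15 without vehicle replicate 2.

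Il1r1 relative to the 8 endothelial markers had a log2 ratio of -5.25 ± 0.334 among vehicle mice (SD, n = 3) and -5.36 ± 0.19 after UMBO (SD, n = 2). The difference of -0.12 was smaller than either SD (exact permutation p = 0.8, adjusted 0.8), and the groups overlapped. With Pecam1 and Cdh5 as the only endothelial markers it was -0.338 (exact permutation p = 0.4). The non-overlap of Il1r1 in CPM was therefore absent from its ratio to endothelial markers. The direction of this ratio turned to 0.06 without vehicle replicate 1 and to 0.02 without UMBO replicate 2.

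Il1a, Il1b and Il18 together, relative to the 10 microglia markers, had a log2 ratio of -4.29, -4.32 and -4.41 with vehicle and of -4.87 and -4.68 with UMBO. Both UMBO libraries were lower than every vehicle library, a difference of -0.44 (exact permutation p = 0.1, the smallest possible, adjusted 0.3). Il18 carried this sum. Without Il18 the difference was 0.40 in the other direction (exact permutation p = 0.6). Il18 had 46.0, 40.9 and 42.5 reads per 1000 microglia marker reads among vehicle mice and 29.1 and 26.4 after UMBO. Il18 itself was nearly level in CPM, and the markers in the denominator were higher with UMBO.

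**Figure D4:**
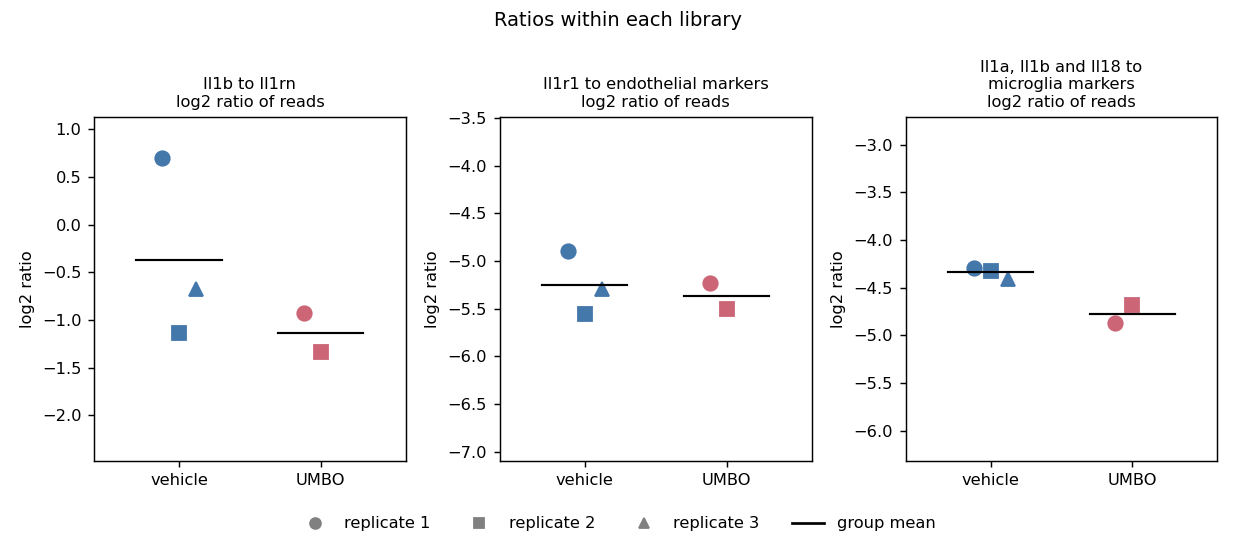
Log2 ratios of reads within each library by group, on axes of equal span, where circles, squares and triangles are replicates 1, 2 and 3 and lines group means. The ligand to microglia marker ratio lies at -4.41 to -4.29 with vehicle and at -4.87 and -4.68 with UMBO, while the other ratios overlap.

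Per kilobase of exon, Il18 had the highest level of the 10 genes in every library. Exonic length was counted over all annotated transcripts of a gene and can exceed the length of its mRNA. For Pycard it was 3800 bases, in a gene that runs from 127989708 to 127993867. The levels and their order depend on this divisor and do not rank the transcripts by abundance. Il18 was at 18.3 ± 2.21 CPM per kilobase among vehicle mice (SD, n = 3) and 20.6 ± 1.18 after UMBO (SD, n = 2). Its libraries lay above those of the next gene in both groups. Levels per kilobase in the vehicle group then ran through Casp1 (3.47), Gsdmd (2.84), Pycard (1.49), Casp4 (0.936), Il1r1 (0.901), Il1a (0.899), Il1b (0.594), Nlrp3 (0.384) and Il1rn (0.378). Of the 9 pairs of neighbors in this order, 8 overlapped in their libraries. In the UMBO group 7 of 9 did, and Nlrp3 came last, at 0.688 ± 0.325 CPM per kilobase (SD, n = 2), below both libraries of Il1r1. Il1rn, last with vehicle, was the seventh here, at 1.74 ± 1.88 CPM per kilobase (SD, n = 2).

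The rest of the pathway was read from a list of 70 other genes, of which 60 had enough counts to be tested. Their median log2 fold change was 0.58, with 49 higher and 11 lower, and 0.13 without UMBO replicate 2. None passed an adjusted p under 0.05 in edgeR or in DESeq2, while 10 had an unadjusted p under 0.05 in edgeR, all toward higher values, where 5.3% of all genes were so toward higher and 2.06% toward lower values. In 16 of the 60 the groups did not overlap and UMBO was higher, where 11.5% of all genes did so. Every pathway gene named here had an edgeR adjusted p of at least 0.497, and values in parentheses after a gene are its log2 fold change and standard error.

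Among 6 other ligands and related genes of the family only Il33, an alarmin of glial cells, was tested, with a log2 fold change of -0.25 (standard error 0.183). Il36a, Il36b and Il1f10 had no read in any library. Of the 8 receptors and decoys 7 were higher, with Sigirr, an inhibitory receptor (1.6, 0.681), and the decoy receptor Il1r2 (1.27, 0.61) furthest up by p. Il1rap, the shared accessory chain, was the only lower one (-0.27, 0.282), and it was 1.02-fold higher without UMBO replicate 2. Without UMBO replicate 2, Sigirr was 1.28-fold and Il1r2 1.02-fold above vehicle.

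Of the 15 sensors and regulators tested, 13 were higher, and 3 had an unadjusted p under 0.05. Naip5, a sensor partner for bacterial flagellin, was at 2.07, 4.09 and 3.01 CPM with vehicle and 5.32 and 8.92 CPM with UMBO, a log2 fold change of 1.22 (standard error 0.393). The groups did not overlap, and the fold was still 1.74 without UMBO replicate 2. Naip5 has close paralogs whose reads can be misassigned. The potassium channel gene Kcnk6 (0.79, 0.293) and P2rx7 (0.6, 0.243), the ATP-gated channel upstream of NLRP3, were the others, also without overlap, at 1.45-fold and 1.23-fold without UMBO replicate 2. P2rx7 was named after its value was seen. Nlrp6 (-0.62, 0.504) and Brcc3 (-0.17, 0.172) had lower means, and in Brcc3 both UMBO libraries, at 30.2 and 30 CPM, lay just under the lowest vehicle library, at 30.4 CPM.

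Cell death effectors included Casp8, at 3.76, 6.62 and 4.84 CPM with vehicle and 8.33 and 15.6 CPM with UMBO, with a log2 fold change of 1.24 (standard error 0.375). Its groups did not overlap, and without UMBO replicate 2 it was 1.64-fold higher. Ninj1 (0.82, 0.319), which ruptures the membrane of dying cells, was the other effector with an unadjusted p under 0.05, at 1.23-fold without UMBO replicate 2, and Gsdme (-0.28, 0.231), another gasdermin, was lower. In all, 5 of the 6 effectors tested had a higher mean.

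The 16 signal transducers below the receptor had a median log2 fold change of 0.11, near that of all genes, with 10 higher and 6 lower. Irak4, a kinase of the receptor complex, was the only one with an unadjusted p under 0.05, at 2.22, 4.76 and 3.22 CPM with vehicle and 5.16 and 10.6 CPM with UMBO (log2 fold change 1.21, standard error 0.45), followed by Myd88 (1.08, 0.491), the adaptor of the receptor. Without UMBO replicate 2 the log2 fold change was 0.60 for Irak4 and 0.13 for Myd88. Both overlap an exon of a protein-coding gene on the opposite strand, 395 bases of Twf1 and 290 bases of Acaa1a. Tab3 (-0.58, 0.286) and Map3k7 (-0.29, 0.247) had lower means with UMBO.

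All 14 tested genes of the IL-1-responsive list had a higher mean, with a median log2 fold change of 1.53 that was 0.31 without UMBO replicate 2. Cxcl1, a chemokine for neutrophils, was at 0.0535, 0.237 and 0.13 CPM with vehicle and 0.351 and 2.99 CPM with UMBO, without overlap (log2 fold change 3.57, standard error 0.995). Il6 was at 0.0267, 0.237 and 0.13 CPM with vehicle and 0.222 and 2.24 CPM with UMBO (log2 fold change 3.22, standard error 1.11), with UMBO replicate 1 within the vehicle range. Both are rare transcripts in these libraries, and UMBO replicate 2 alone exceeded 1 CPM. Nfkbia (1.1, 0.396) and Mmp3 (4.23, 1.54) were the other genes of this list with an unadjusted p under 0.05, named after their values were seen. With UMBO replicate 2 left out, Cxcl1 was at 1.33 on the log2 scale, Il6 at 0.77, Nfkbia at 0.49 and Mmp3 at 0.83. These genes also respond to signals other than IL-1.

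**Figure D5:**
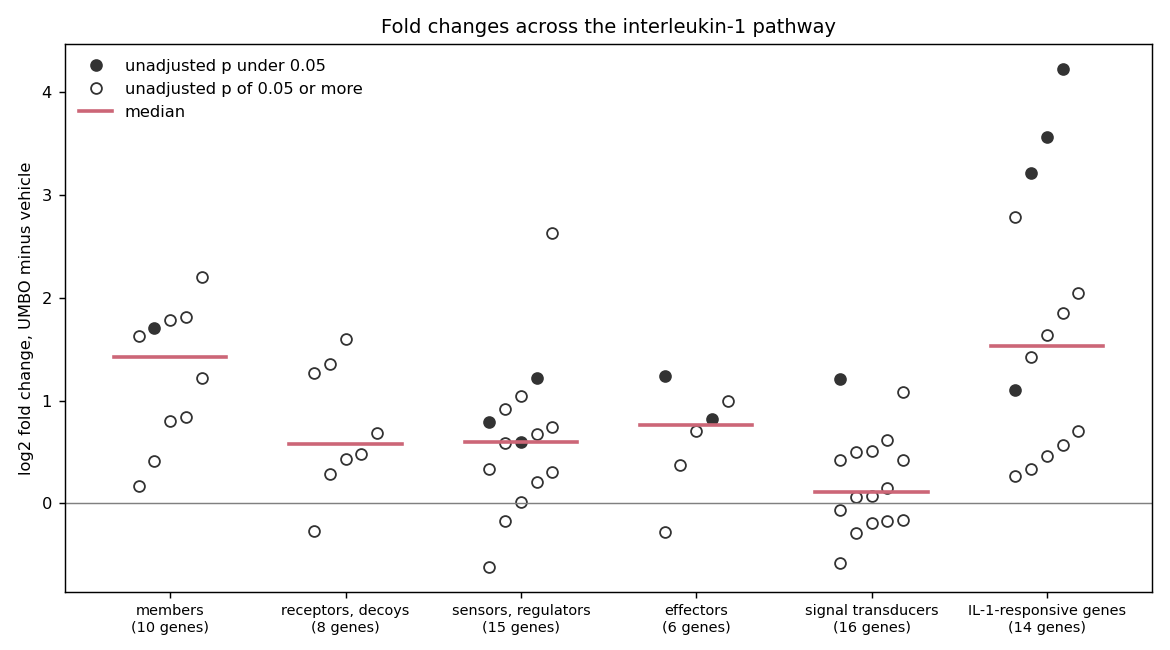
Log2 fold change between UMBO and vehicle for the 10 genes and for 5 lists of other pathway genes, where each point is a gene, filled where the unadjusted p was under 0.05, and lines are medians. The medians are 1.43 for the 10 genes, 0.58, 0.60, 0.76 and 0.11 for the next lists, and 1.53 for the IL-1-responsive genes.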

How the data were processed

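Bulk RNA of the right hemisphere from 3 vehicle and 2 UMBO mice was analysed. The methods of the study describe 1 mouse more, which was not analysed here. Reads were aligned with STAR 2.7.2a against GRCm38. The authors deposited 1 table per library with the raw counts for each Ensembl gene. The annotation release and strand setting of the counting were not given in the sources used here. Symbols, positions and exonic lengths came from GENCODE M21, on the same build, which named 55394 of 55573 genes. Groups and replicate numbers came from the sample labels, and p-values measure the spread between these mice.

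From the counts, CPM was computed after TMM scaling, and 23592 genes kept by filterByExpr were fitted together by quasi-likelihood in edgeR 4.0.16 under R 4.3.3, and p-values were adjusted by Benjamini-Hochberg, with a threshold of 0.05. The standard error is the log2 fold change divided by the square root of F. Log2 CPM used a prior count of 2. Ratios of reads were tested with exact permutation, with 0.5 reads added for Il1b to Il1rn. Fits were tested on simulated data with 200 genes changed 4-fold. Genes named in the text were all 10 of the group, for every pathway list the 2 higher and 2 lower genes of lowest p, and the nearest gene to each of the 10. The group and the lists were chosen with earlier results of these data known. Alternatives covered scaling, the filter, DESeq2 1.42.0, the replicate block and each library left out.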

Additional observations from a re-analysis of the deposited data

How the results depend on the processing

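Direction held for 9 of the 10 genes in every setting run, and for Casp1 in every setting but the one without UMBO replicate 2, where its log2 fold change was -0.03 (at most 1.86, without UMBO replicate 1). With 1 library left out the median over the 10 genes ranged from 0.22 (without UMBO replicate 2) to 2.05 (without UMBO replicate 1), and that of the other pathway genes from 0.13 (without UMBO replicate 2) to 0.91 (without UMBO replicate 1). Of the 10 genes, 1 had an unadjusted p under 0.05 toward higher values in the reported fit, against 5.3% of all genes. Without a filter on low counts 6 did so, against 7.31%, and 4 in the DESeq2 Wald test, against 4.87%. With a vehicle library left out, 0 did so without replicate 1 (0.838% of all genes), 7 without replicate 2 (9.36%) and 0 without replicate 3 (0.945%). The number passing an adjusted p under 0.05 ranged from 0 to 3 of the 10, and from 0 to 4543 of all genes, with a library left out. The upper values are those without UMBO replicate 1, where UMBO replicate 2 stands alone and is assumed to vary like the vehicle libraries. The DESeq2 Wald test called 40 genes. Why these counts differ was not tested.

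With the replicate block 5 of the 10 (Il1b, Il1rn, Pycard, Casp4 and Gsdmd) and 2337 of all 23592 genes passed an adjusted p under 0.05. An unadjusted p under 0.05 toward higher values was reached by 8 of the 10, against 14.4% of all genes. The labels do not say that a number marks a shared litter or day, so the numbers were not taken as pairs. The 2 shared numbers had correlations of deviations of 0.453 and 0.76. With 2 UMBO libraries the deviations of the UMBO group mirror each other. Both correlations thus rest on the same difference between UMBO replicates 1 and 2 and cannot decide whether the numbers mark pairs. With scaling by library size alone, the median over all genes was 0.13 instead of 0.01 and that over the 10 genes 1.56. Over all genes, 1251 were higher and 487 lower at an unadjusted p under 0.05. These counts were 2954 and 1146 without a filter, 1970 and 768 in DESeq2 and 3396 and 2738 with the block. With a library left out they ran from 194 and 102 (without vehicle replicate 1) to 5310 and 4855 (without UMBO replicate 1), and were 217 and 215 without vehicle replicate 3, 2164 and 510 without vehicle replicate 2 and 281 and 174 without UMBO replicate 2.

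The ratio of Il1r1 to endothelial markers ranged from -0.273 to 0.0585 with a library left out, and the ratio of the ligands to microglia markers was 0.399 without Il18. With 2 UMBO mice no exact permutation test could pass 0.05. Depth limits rare transcripts such as Il6, with 2 to 147 reads per library.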

Other observations

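Read against the monocyte and macrophage markers, Il1b, Casp4, Il1rn, Pycard, Gsdmd and Casp1 varied less between mice than in CPM. Il18, Il1r1, Il1a and Nlrp3 varied more. Il1b had 32.5, 20.3 and 16.4 reads per 1000 reads of these 7 markers among vehicle mice and 15.0 and 15.6 after UMBO, although its CPM spanned 12.3-fold. Casp4 had 83.9, 63.6 and 53.1 with vehicle and 49.9 and 46.1 with UMBO, where its CPM spanned 14.0-fold. Il1rn had 19.8, 44.8 and 26.1 with vehicle and 28.6 and 39.3 with UMBO. Pycard ran from 192 in vehicle replicate 1 to 65.2 in UMBO replicate 2, Gsdmd from 234 to 75.3 and Casp1 from 227 to 44.5. Their CPM spanned 8.69-fold, 8.24-fold and 5.91-fold, so the narrowing was slight for Casp1. From vehicle replicate 1 to UMBO replicate 2, Il18 ran from 987 to 51.2, Il1r1 from 344 to 17.8, Il1a from 76.8 to 8.88 and Nlrp3 from 72.1 to 8.63, each a wider range than in CPM. The narrowing was not particular to this list. Against the microglia markers, and against the neutrophil markers, Il1b, Casp4, Il1rn, Pycard, Gsdmd and Casp1 also varied less than in CPM. Il1a and Nlrp3 varied less there as well, while Il18 and Il1r1 varied more. Per 1000 microglia marker reads, Casp1 ran from 7.26 in UMBO replicate 1 to 22.9 in UMBO replicate 2. Nlrp3 ran from 2.66 to 4.45 in the same libraries. These ratios were chosen after the levels were seen and were not tested.

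For vehicle replicate 2 and UMBO replicate 1, which lay between the other libraries in most of the 10 genes, the monocyte and macrophage marker sums were 112 and 79.0 CPM and the proliferation marker sums 92.6 and 94.6 CPM, where vehicle replicates 1 and 3 had proliferation sums of 38.7 and 26.2 CPM. Their T cell marker sums, however, were 26.9 and 9.75 CPM, and their microglia marker sums 518 and 699 CPM. Arg1, an arginase of myeloid cells, was at 30.2 CPM in vehicle replicate 2 and 8.29 in UMBO replicate 1, against 0.241 and 1.00 in the other vehicle libraries.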
